A study of Mus musculus with 10 samples.

Results

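The cathepsins and legumain, proteases that break down protein inside lysosomes, were followed in the gastrocnemius, the large calf muscle, of mice. The 10 genes Ctsb, Ctsc, Ctsd, Ctse, Ctsh, Ctsk, Ctsl, Ctss, Ctsz and Lgmn were chosen by name, and every probe set whose platform annotation gave 1 of these genes and no other was taken, which made 17 probe sets of 12488 on the array and 10 genes of 8251. The samples were 5 arrays of male mdx mice aged 16 weeks, a strain whose dystrophin gene carries a premature stop, set against 5 arrays of normal male mice of the same age. The labels name no strain background, treatment or batch, and they do not say that each array came from a separate animal, so p-values here set group differences against the spread from array to array, some of which may be technical.

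Cathepsins are made as inactive precursors, are carried to the lysosome largely by mannose 6-phosphate tags, and become active in its acid interior. Most of them cut with a cysteine, cathepsins D and E cut with an aspartate, and legumain cuts after asparagine and processes several of the cathepsins into their mature chains. In muscle they are known from fibre breakdown and from the macrophages and connective tissue cells of injured tissue, and cystatins hold the cysteine enzymes in check.

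Most of these genes were higher in mdx muscle. All tested probe sets of 8 of the 10 genes rose, led by Ctss. With the intensities as deposited, the aspartic proteases Ctsd and Ctse had no probe set that passed the test. Under other scalings, given below, Ctsd 93810_at and Ctse 93861_f_at were called higher, and the signal of the latter was not shown to be that of Ctse. Of the 17 probe sets, 15 passed a filter on dim signals (an intensity over 134.2, the 40th percentile of the table, on 5 arrays or more), 12 of them were called higher in mdx, 0 lower, and 3 were not called, by limma at an adjusted p below 0.05. Over all 7612 tested probe sets 33.1% were called, 15.6% higher and 17.5% lower. Every mdx array lay above every control array for 12 of the 15 tested probe sets and below for 0, where over all tested probe sets these shares were 12.3% and 12.7%. Of the 2 untested probe sets, 1 of Ctsb had every mdx array below every control array. The median log2 change, mdx minus control, was 1.33 over the 15 probe sets and -0.046 over all tested. In 1 of the 15, a dim probe set of Ctsc, only the mdx arrays carried the probe set past the filter. In whole muscle, a difference in the number of cells of a type and one in the RNA per cell cannot be told apart.

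**Figure D1:**
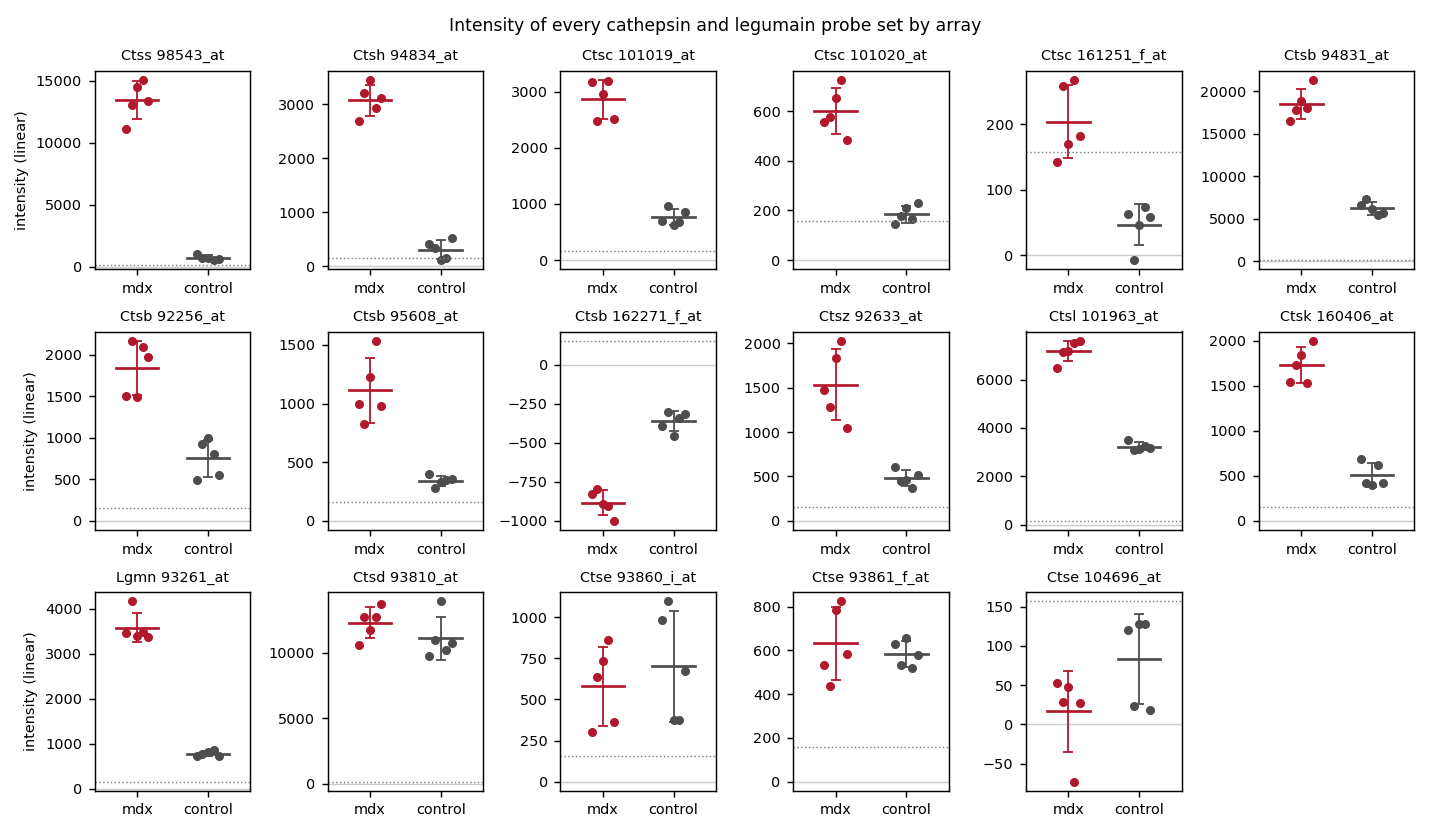
Linear intensity of all 17 probe sets, a panel each, with mdx arrays on the left and control arrays on the right; each point is an array, the horizontal bar is the mean, the error bar is the SD (n = 5), and the dotted line is the noise level of 156.8. In 12 panels every mdx array lies above every control array, in 1 (Ctsb 162271_f_at, below 0 throughout) every mdx array lies below, and in 4 (Ctsd and the 3 probe sets of Ctse) the groups overlap.

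The promoters of Ctss, Ctsk and Ctsd are shown because the first 2 belong to genes that rose and the third to a bright gene that was not called. Each is the stretch of 250 bases before the start site from RefSeq, build GRCm38.p6, read 5′ to 3′ on the strand of the gene. Capitals mark matches, on either strand, of GAGGAA, the core that the myeloid factor PU.1 binds, and of CACGTG, the E-box core of the CLEAR element through which TFEB acts on lysosomal genes. Ctss is at chr3:95526536-95526785 on the plus strand, Ctsk at chr3:95498960-95499209 on the plus strand and Ctsd at chr7:142387828-142388077 on the minus strand.
Ctss: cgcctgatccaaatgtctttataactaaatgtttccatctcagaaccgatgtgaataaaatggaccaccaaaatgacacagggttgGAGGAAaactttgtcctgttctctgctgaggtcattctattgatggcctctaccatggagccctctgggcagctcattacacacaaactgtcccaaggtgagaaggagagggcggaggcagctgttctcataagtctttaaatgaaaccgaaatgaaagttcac
Ctsk: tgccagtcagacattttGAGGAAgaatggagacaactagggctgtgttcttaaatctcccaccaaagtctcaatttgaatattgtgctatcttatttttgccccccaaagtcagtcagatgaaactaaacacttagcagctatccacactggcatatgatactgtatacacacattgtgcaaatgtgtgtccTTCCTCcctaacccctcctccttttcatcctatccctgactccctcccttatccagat
Ctsd: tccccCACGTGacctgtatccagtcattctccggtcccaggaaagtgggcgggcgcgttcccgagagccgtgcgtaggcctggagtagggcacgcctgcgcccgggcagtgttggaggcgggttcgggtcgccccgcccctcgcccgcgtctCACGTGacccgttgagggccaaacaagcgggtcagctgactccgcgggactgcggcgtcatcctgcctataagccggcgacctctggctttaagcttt

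In the Ctss promoter GAGGAA begins 164 bases before the start, and a match on the other strand begins at the start site itself, just past the printed stretch. In the Ctsk promoter it begins 233 bases before the start and, on the other strand, 58 bases before. In the Ctsd promoter CACGTG begins 245 and 98 bases before the start. RefSeq promoters, from 250 bases before to 50 after the start, were matched for 7 of the 10 genes, 8 promoters in all, and Ctsb, Ctse and Ctsh were not matched. GAGGAA was found in 3 of the 8, those of Ctss, Ctsk and Ctsc, and in 28.3% of all 32851 promoters. CACGTG was found in 3 of the 8, those of Ctsd, Ctsl and 1 of the 2 of Lgmn, and in 7.15% of all. The full CLEAR element, which holds CACGTG within it, was found in 0 of the 8 and in 0.326% of all. These are matches of letters only.

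Among the cysteine endopeptidases, Ctss changed most. Cathepsin S, on chromosome 3, cuts the class II invariant chain in antigen-presenting cells and stays active at neutral pH. Its probe set (98543_at) read 11128, 13079, 14506, 15105 and 13397 on the mdx arrays, against 1050.0, 749, 732, 552 and 662 on the control arrays. The groups lay far apart, and the lowest mdx array, replicate 1, was still above the highest control array, also replicate 1. The mdx mean was 17.95 times the control mean, the fitted log2 change was 3.92 (SE 0.13; limma adjusted p = 4.02e-09), and 6 of the 7612 tested probe sets rose more. All log2 changes are taken after adding the noise level of 156.8 to the intensity, which understates the change of dim probe sets.

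Ctsk lies beside Ctss on chromosome 3, with 0 protein-coding genes between them in GRCm38.p6. Cathepsin K is the collagen-cutting protease of osteoclasts and is also made by fibroblasts and some macrophages. Its probe set (160406_at) read 1536, 1735, 1840.4, 1530.2 and 2001 in mdx, against 683, 421, 402, 624 and 426 in control. The groups did not overlap, and the mdx mean was 3.38 times the control mean. The fitted log2 change was 1.51 (SE 0.14; limma adjusted p = 5.05e-06).

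Ctsl encodes cathepsin L, which degrades protein taken into the lysosome and is made by muscle fibres as well as by macrophages. It read 6490.4, 7140.2, 7190.4, 7514 and 7577 in mdx, against 3517, 3080.0, 3111, 3246 and 3167 in control (101963_at). Both groups were tight, and the groups lay clearly apart. The mean was 7182 ± 432 in mdx and 3224 ± 176 in control (SD, n = 5 each), a ratio of 2.23. The fitted log2 change was 1.12 (SE 0.070; limma adjusted p = 2.09e-07).

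Ctsb, for cathepsin B, which trims peptides from the carboxyl end and also cuts within chains, had 4 probe sets. The brightest, 94831_at, read 16480.4, 17731, 18821, 18020.0 and 21339 in mdx, against 6673, 7323, 6195, 5406 and 5629 in control. The second, 92256_at, read 1505, 2165, 1484, 2094 and 1966 in mdx, against 497, 919, 992, 802 and 551 in control. The third, 95608_at, read 994, 830.1, 1228, 1538 and 979.6 in mdx, against 399, 278, 332, 349 and 356 in control. In all of these the groups did not overlap, and the log2 changes were 1.54 (SE 0.097, limma adjusted p = 2.18e-07), 1.16 (SE 0.17, adjusted p = 0.000282) and 1.33 (SE 0.15, adjusted p = 2.55e-05). The ratios of the mdx mean to the control mean were 2.96, 2.45 and 3.25, in the same order.

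The remaining Ctsb probe set, 162271_f_at, went the other way. It read -827, -795, -893, -903 and -1001 in mdx, against -394, -299, -456, -342 and -318 in control. Every value was below 0, and every mdx array was further below 0 than every control array. Values below 0 show a subtraction, but the labels do not say what was subtracted. It did not pass the filter and was not tested. The suffix _f marks a probe set that Affymetrix designed with probes shared among related sequences.

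The exopeptidases, which remove residues from chain ends, also rose. Cathepsin H is an aminopeptidase, and Ctsh (94834_at) read 2692, 3199, 3451, 2918 and 3103 in mdx, against 415, 336, 114, 145 and 518 in control. The mdx arrays were all well above the noise level, and control replicates 3 and 4 were below it. The log2 change was 2.89 (SE 0.23, limma adjusted p = 1.43e-06), the largest of the 10 genes after Ctss, and no ratio of means is given because of the control arrays below the noise level.

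Cathepsin C removes dipeptides and activates the serine proteases of mast cells, neutrophils and killer lymphocytes. Its brightest probe set, 101019_at, read 3181, 2477, 2964, 3198 and 2509 in mdx, against 691, 965, 627, 682 and 866 in control. The second, 101020_at, read 554, 577, 654, 726 and 485 in mdx, against 143, 178, 208, 164 and 228 in control. The third, 161251_f_at, read 142, 258, 169, 268 and 182 in mdx, against 62.2, -7.4, 46.6, 72.8 and 58.6 in control, where all 5 arrays were below the noise level. The groups did not overlap in any of them. The log2 changes were 1.72 (SE 0.12, limma adjusted p = 6.07e-07), 1.15 (SE 0.13, adjusted p = 3.26e-05) and 0.81 (SE 0.17, adjusted p = 0.00246), and the dimmest was at least 1.29-fold higher when set against the noise level. The added noise level lowers the log2 change of a dim probe set more than that of a bright one, so these sizes were not compared with each other. The dimmest passed the filter only through the mdx arrays, and its suffix _f marks probes shared among related sequences.

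Cathepsin Z, also called cathepsin X, is a carboxypeptidase common in myeloid cells. Ctsz (92633_at) read 1469.5, 1284, 1836, 2032 and 1049 in mdx, against 607, 448, 465, 375 and 517 in control. The mdx arrays were more widely spread than the control arrays, with replicate 5 lowest and replicate 4 highest, and still all lay above control. The ratio of means was 3.18 and the log2 change 1.38 (SE 0.17, limma adjusted p = 4.42e-05).

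Legumain, the asparaginyl endopeptidase, is abundant in macrophages and kidney. Lgmn (93261_at) read 3467, 4158, 3401, 3476 and 3374 in mdx, against 729, 764, 809, 857 and 738 in control. In mdx 4 arrays lay within a narrow range and replicate 2 stood above them. The ratio of means was 4.59 and the log2 change 1.99 (SE 0.085, limma adjusted p = 1.09e-08), and 1.94 without that array.

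**Figure D2:**
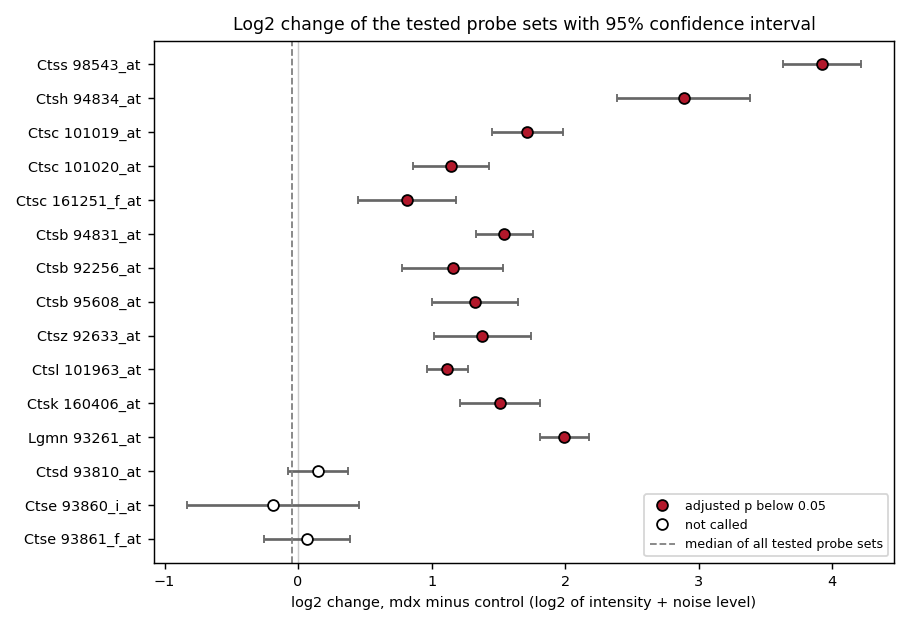
Log2 change, mdx minus control, of the 15 tested probe sets with its 95% confidence interval from limma (n = 5 arrays per group); filled points were called and open points were not, and the dashed line is the median of all tested probe sets, -0.046. The intervals of the 12 called probe sets lie above 0, and those of Ctsd and Ctse include it.

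The aspartic proteases did not pass with the intensities as deposited. Cathepsin D is the main aspartic endopeptidase of lysosomes in most cells. Ctsd (93810_at) read 10575, 12725, 11771, 12732 and 13768 in mdx, against 9756, 11004, 13935, 10187 and 10765 in control. The groups overlapped, and the highest control array, replicate 3, was above all mdx arrays. The mean was 12314 ± 1202 in mdx and 11129 ± 1643 in control (SD, n = 5 each), a log2 change of 0.15 with a 95% interval of -0.077 to 0.38 (SE 0.10, limma adjusted p = 0.302). With quantile normalization the change was 0.37 (adjusted p = 0.0058), and with arrays scaled to the hybridization controls it was 0.78 (adjusted p = 0.000524), both called.

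Cathepsin E is an aspartic protease of immune cells and of the stomach lining. Its probe set 104696_at read 52.1, 28.3, 47.8, -73.2 and 26.9 in mdx, against 120.2, 23.1, 128, 128 and 18.7 in control, below the noise level on all 10 arrays, and was not tested. The probe set 93860_i_at read 304, 636, 736, 862 and 366 in mdx, against 986, 1096, 375, 373 and 674 in control, and 93861_f_at read 532, 436, 782, 824 and 584 in mdx, against 629.8, 533, 657, 519.6 and 581 in control. Both overlapped between the groups, with log2 changes of -0.19 (95% interval -0.83 to 0.45, limma adjusted p = 0.667) and 0.068 (95% interval -0.26 to 0.39, adjusted p = 0.77). The signs of both changed under other settings, such as leaving out mdx replicate 3 or mdx replicate 4 for 93861_f_at, and scaling to the hybridization controls called 93861_f_at higher at 0.57 (adjusted p = 0.0162). The platform annotation gives these last probe sets 1 source accession, another than that of 104696_at, and the suffix of 93861_f_at marks probes shared among related sequences. The signal of neither probe set was shown to be that of Ctse.

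The ratio to Ctsd on the same array, on which a common scaling factor largely cancels, is given as a description without a test, since Ctsd was taken after its values and those of the other members were known. For Ctss the log2 ratio was -0.039 to 0.30 on the mdx arrays and -3.99 to -3.04 on the control arrays. For Ctsl it was -0.85 to -0.69 on the mdx arrays and -2.11 to -1.43 on the control arrays. For the brightest Ctsb probe set it was 0.47 to 0.67 on the mdx arrays and -1.15 to -0.54 on the control arrays. In each of these the mdx and control arrays did not overlap, and since probe sets differ in brightness, only the shift between groups can be read, not which gene had more RNA.

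The mdx arrays did not stand in the same order for every member. Of the 15 tested probe sets, mdx replicate 1 was the lowest mdx array for 7 and the highest for 0, and mdx replicate 4 was the highest for 8 and the lowest for 1. The median deviation from the group mean was -0.16 on the log2 scale for mdx replicate 1 and 0.17 for mdx replicate 4, where the median over all tested probe sets was -0.099 and 0.027. Mdx replicate 1 was also the array deposited at a lower scale, with a trimmed mean of 723.1, against 800.7 to 800.9 on the other 9. Leaving out both mdx replicate 1 and mdx replicate 5, or any array singly, left the count of called member probe sets at 12.

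Measures of the arrays themselves also differed between the groups. The spiked-in hybridization controls, bacterial and phage transcripts added at fixed amounts, averaged 12.54 to 12.95 on the log2 scale in mdx and 13.25 to 13.65 in control (exact permutation p = 0.00794). The share of values below 0 was 19.7% to 22.5% in mdx and 22.8% to 23.8% in control (exact permutation p = 0.00794). The 3' to 5' signal ratio of actin, which tracks RNA integrity, was 0.952 to 1.08 in mdx and 1.07 to 1.16 in control (exact permutation p = 0.0159). When arrays were scaled to the hybridization controls, the median change of all tested probe sets was 0.45, against -0.046 as deposited, and 96.6% of all calls were higher in mdx, against 47.3%. Under that scaling the changes of Ctss, Ctsl and Ctsd were 4.05, 1.29 and 0.34 above the median of all tested probe sets, and as deposited they were 3.97, 1.16 and 0.20 above it. The part of these array measures in the members' changes was not tested.

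**Figure D3:**
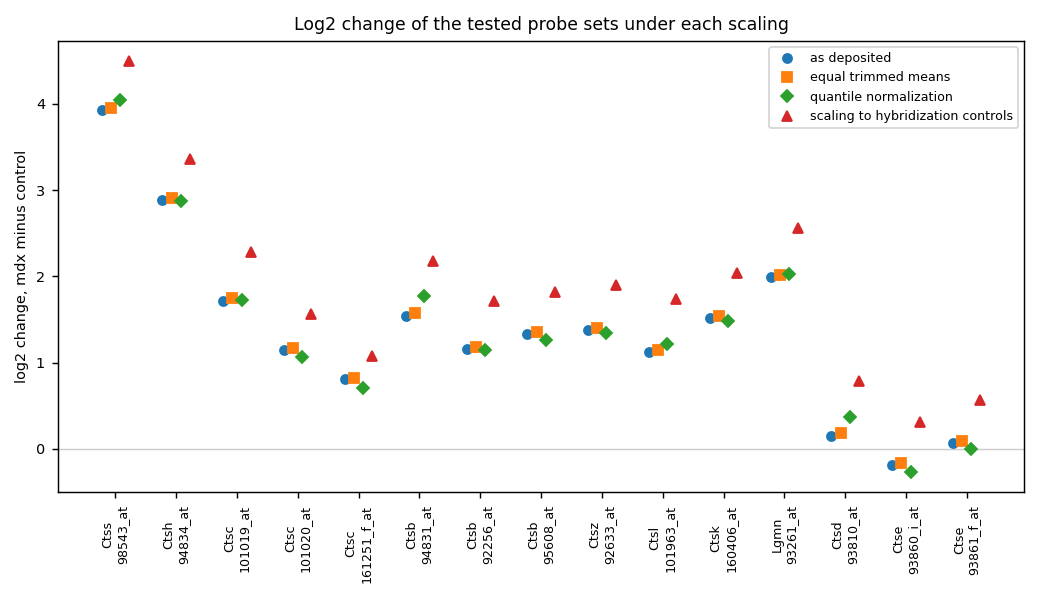
Log2 change, mdx minus control, of the 15 tested probe sets (horizontal axis) with the intensities as deposited and after each of 3 other scalings. The 12 called probe sets stay above 0 under each, Ctsd runs from 0.15 to 0.78, and the triangles of the scaling to hybridization controls lie highest in every column.

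Other lysosomal peptidases were also mostly higher in mdx. Of 17 listed, 8 were on the array and 5 probe sets were tested, of which 4 were called higher and 0 lower, with a median log2 change of 0.47. For this list and those below, the shares over all tested probe sets were 15.6% higher and 17.5% lower as deposited. When scaled to the hybridization controls, 46.1% of all tested were called higher. The carboxypeptidase Ctsa, which also protects lysosomal galactosidase and neuraminidase, averaged 2331 ± 260 in mdx and 1173 ± 132 in control, a rise of 0.90 on the log2 scale (SE 0.099, limma adjusted p = 2.26e-05). The carboxypeptidase Scpep1 rose by 1.05 (adjusted p = 0.00129) and the dipeptidyl peptidase Dpp7 by 0.47 (adjusted p = 0.0068). Tpp1, the tripeptidyl peptidase, rose by 0.26 (adjusted p = 0.0241). It lost its call without mdx replicate 2, 3 or 4 or control replicate 2 or 5, singly, with an adjusted p of up to 0.0628. With no variance trend in the fit it was not called either (adjusted p = 0.0515). Ctsf, a cysteine cathepsin, stood at -0.082 (adjusted p = 0.577), and Cts7, Ctsg and Ctsw were below the noise level on all arrays.

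Among inhibitors calls went both ways, where over all tested probe sets 15.6% were called higher and 17.5% lower. Of 17 cystatins, stefins and relatives, 6 were on the array and 5 probe sets were tested, of which 1 was called higher and 1 lower, with a median log2 change of -0.16. After quantile normalization 2 were called higher and 0 lower (median 0.16), and when scaled to the hybridization controls 3 were called higher and 0 lower (median 0.38). Cstb, the stefin that inhibits cathepsins in the cytosol, read 4721 to 5794 in mdx and 2199.7 to 2412 in control. Its fitted log2 change was 1.21 (SE 0.076; limma adjusted p = 2.12e-07). Cst3, the secreted cystatin C, had a probe set called lower at -0.64 (161522_i_at, adjusted p = 0.0147), but its change was -0.013 when arrays were scaled to the hybridization controls. That probe set also lost its call with quantile normalization (-0.43, adjusted p = 0.07) and with no filter (adjusted p = 0.0533). The other, 99586_at, stood at -0.26 (adjusted p = 0.065). Without mdx replicate 5, 99586_at passed at -0.34 (adjusted p = 0.00702). With quantile normalization the same probe set was at 0.20 (adjusted p = 0.02). Cst9 stood at 0.20 (adjusted p = 0.525) and Kng1 at -0.16 (adjusted p = 0.56), and Ahsg and Cst7 were below the noise level on all arrays.

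Of 13 genes that help sort proteins to the lysosome, 10 were on the array and 9 probe sets were tested, with 3 called higher and 0 lower and a median of 0.30, against 7 higher and 0 lower when scaled to the hybridization controls. The sphingolipid activator precursor Psap rose by 0.98 (97114_at, limma adjusted p = 6.06e-06). Another of its probe sets stood at 0.30 (161476_at, adjusted p = 0.08) and passed without control replicate 4, at 0.39 (adjusted p = 0.0168). This second probe set also passed with quantile normalization (0.34, adjusted p = 0.0489) and when scaled to the hybridization controls (0.89, adjusted p = 0.000291). Lrp1, an endocytic receptor, rose by 0.43 (adjusted p = 0.000768), and Scarb2, which carries glucocerebrosidase, by 0.32 (adjusted p = 0.0119). The cation-independent mannose 6-phosphate receptor Igf2r stood at 0.14 (adjusted p = 0.486), and M6pr and Gnptab were below the noise level on all arrays. The adaptor Gga1 stood at 0.59 (adjusted p = 0.0566) and passed without control replicate 1, at 0.80 (adjusted p = 0.00211). It also passed with equal trimmed means (0.62, adjusted p = 0.0478) and with a stricter filter (adjusted p = 0.0457). When scaled to the hybridization controls it passed at 1.13 (adjusted p = 0.00191).

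Among regulators, Spi1, which encodes PU.1, read 587 to 1036 in mdx and 30.3 to 337 in control. Its fitted log2 change was 1.39 (SE 0.26, limma adjusted p = 0.00121). Irf8 and Mitf were not called, at 0.29 (adjusted p = 0.187) and -0.39 (adjusted p = 0.106). Mitf was called lower after quantile normalization, at -0.49 (adjusted p = 0.0444), and Irf8 higher when scaled to the hybridization controls, at 0.85 (adjusted p = 0.00602). Tfeb was not tested, and its values of -78.7 to 87.5 in mdx all lay below those of 95.8 to 245 in control, with 5 mdx arrays and 3 control arrays below the noise level.

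The class II genes, whose invariant chain is a substrate of cathepsin S, were all called where tested. All 6 tested probe sets of the class II invariant chain and its partners rose, with a median log2 change of 2.88. Cd74, the invariant chain that Ctss, Ctsl and Lgmn help to cut, averaged 14453 ± 2326 in mdx and 1756 ± 302 in control, a rise of 2.93 on the log2 scale (SE 0.13, limma adjusted p = 1.42e-08), and H2-Aa and H2-Eb1 rose by 4.09 and 2.32 (adjusted p = 4.34e-07 and 1.33e-06). H2-DMb1 had no control array above the noise level, passed the filter only through the mdx arrays, and was at least 3.74-fold higher in mdx (adjusted p = 1.99e-06). Ciita, their transactivator, was below the noise level on all arrays. Of the serine proteases that Ctsc activates, 25 probe sets of 18 genes were on the array, 7 were tested, and 2 were called higher, both chymases. The median log2 change of the 7 was -0.057, against -0.046 over all tested probe sets, of which 15.6% were called higher. Cma1 rose by 1.72 (adjusted p = 6.08e-07) and Cma2 by 1.59 (adjusted p = 6.93e-05). Cma2 was below the noise level on 4 of the 5 control arrays, and its change ran from 1.05 to 2.01 over the alternatives. Mcpt1 stood at -0.16 (adjusted p = 0.322) and Mcpt8 at -0.27 (adjusted p = 0.337), and Gzmc, Gzmd, Gzmf, Gzmk, Ctsg, Mcpt4 and Tpsab1 were below the noise level on all arrays.

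Most macrophage markers were higher in mdx muscle. Of 16 macrophage genes 15 were tested, by 18 probe sets, of which 14 were called higher and 0 lower, with a median log2 change of 2.63. Of those called, Cd53 and Lgals3 passed the filter only through the mdx arrays. The summed intensity of the list was 62510 to 84195 in mdx and 5245 to 8944 in control. These sums, and those below, add the brightest probe set of each gene, tested or not, with values below 0 set to 0. Itgam was below the noise level on all arrays. Of 13 tested fibroblast probe sets 8 were called higher, 2 lower and 3 not, against 9 higher and 1 lower after quantile normalization and 12 higher and 0 lower when scaled to the hybridization controls. Those called lower were Dcn, the proteoglycan decorin, at -0.35 (limma adjusted p = 0.0298) and Pdgfra, a growth factor receptor, at -0.36 (adjusted p = 0.0464). Another Pdgfra probe set went the other way, but it did not pass the filter and was not tested. It read -14.2 to 1157 in mdx and -1127 to -534 in control, so every mdx array lay above every control array. A further Pdgfra probe set was below the noise level on all arrays. The fibroblast list had sums of 73661 to 85590.4 in mdx and 43358 to 54957 in control. Muscle fibre genes checked the tissue, since none of the 8 was below the noise level on all arrays, and 8 of their 11 tested probe sets were called lower, but 2 after quantile normalization and 0 when scaled to the hybridization controls, with sums of 143186 to 211895 in mdx and 179572 to 296991 in control.

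The lists for other cell types held at most 3 tested probe sets each. All 3 tested probe sets of general leukocyte genes were called higher, with sums of 4170.2 to 5132 in mdx and 151 to 938 in control. That of Ptprc passed the filter only through the mdx arrays, with every control array below the noise level. Coro1a was below the noise level on all arrays. Of 3 mast cell probe sets 2 were called higher (sums 1724 to 2087 in mdx, 628 to 850.1 in control). Of those called, that of Cpa3 passed the filter only through the mdx arrays, with every control array below the noise level. Kit, Fcer1a and Mcpt4 were below the noise level throughout. Of 3 B cell probe sets 1 was called lower (1068 to 1441 in mdx, 1185 to 2147 in control). No probe set was called for T and NK cells (243 to 569 in mdx, 236 to 432 in control), with Cd3d, Cd3e, Cd3g and Cd8a below the noise level, for neutrophils (1158 to 1768 in mdx, 586 to 1327 in control), with Ngp below it, or for osteoclasts (193 to 1097 in mdx, 26.4 to 856 in control), with Calcr below it. When scaled to the hybridization controls, 1 B cell probe set was called higher and 0 lower, and 2 of the 3 neutrophil probe sets and the 1 of T and NK cells were called higher. The part of any cell type in the members' changes was not tested.

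**Figure D4:**
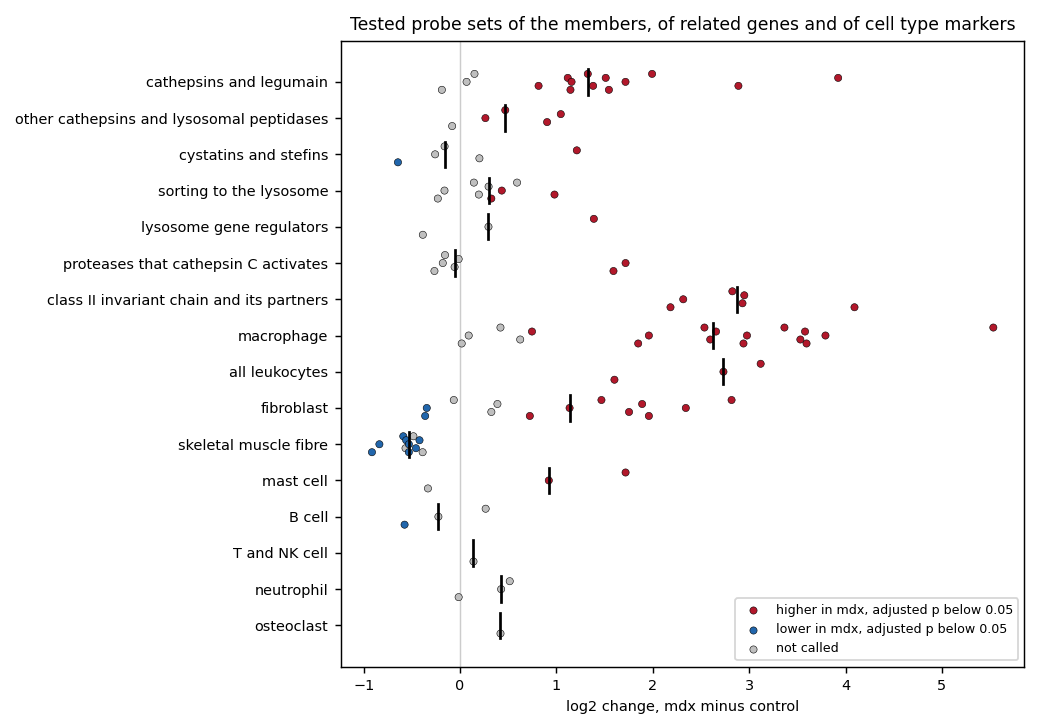
Log2 change, mdx minus control, of every tested probe set of the cathepsins and legumain (top row), of related gene lists and of cell type markers; each point is a probe set, red called higher, blue called lower and grey not called, and the black bar is the list's median. The medians are 1.33 for the cathepsins and legumain, 2.63 for macrophage markers, 1.14 for fibroblast markers and -0.53 for muscle fibre genes, the last at 0.10 when scaled to the hybridization controls.

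The genes whose profile over the 10 arrays was nearest to a member's, by the root mean square (RMS) difference of log2 values after centring, were sought among 6805 tested probe sets of other genes. Nearest to Ctss were the matrix protein gene Postn (RMS difference 0.20), the complement chain C1qb (0.21) and the macrophage lysozyme Lyz2 (0.22). Nearest to Ctsk were the purine enzyme Pnp (0.13), the class I gene H2-Q4 (0.13) and the polyamine enzyme Sat1 (0.15). Nearest to Lgmn were the collagen chain Col6a3 (0.11), the annexin Anxa1 (0.13) and the membrane protease Adam8 (0.14), and nearest to the brightest Ctsb probe set were Fstl1 (0.12), Ptgr1 (0.12) and Mup3 (0.13). The control values of Adam8 were all below 0 and those of Mup3 all below the noise level, so that part of their profile is set by the floor at 0. Adam8 and Mup3 passed the filter only through the mdx arrays, and Ptgr1 was below the noise level on 4 of the 5 control arrays. The measure is a description over arrays that differ mainly by group.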

How the data were processed

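The deposited table gives probe set intensities on a linear scale, from mouse gastrocnemius on 10 arrays, 5 mdx and 5 control. The labels name no software, background correction or scaling, and the values show subtraction (values below 0) and scaling to a common trimmed mean on 9 of 10 arrays. Groups came from the array titles. The 66 control probe sets were left out, and the platform annotation gave 1 gene for 10833 probe sets, several for 396 and none for 1193. Symbols were checked by gene number in RefSeq (GRCm38.p6), which changed 0.

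Values below 0 were set to 0, and log2(intensity + 156.8) was compared with limma 3.58.1 in R 4.3.3 (eBayes with a trend in the variance), as a two-sided test, and p-values were adjusted by Benjamini-Hochberg across the 7612 tested probe sets. The noise level of 156.8 is the SD implied by the median of the values below 0. A probe set was tested where 5 or more arrays exceeded the table's 40th percentile, 134.2. Alternatives were other noise levels, filters, scalings, no variance trend, a replicate block and leaving out arrays. The fits were tested on simulated data. Single array measures were compared with an exact permutation test, two-sided, over 252 splits. Precision is limited by the 5 arrays a group.

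The members, the lists and the tests were chosen with earlier results of these data known. Named genes were all members, up to 4 genes of each related list with the smallest p and any called the other way, and the 3 nearest profiles to Ctss, Ctsk, Lgmn and Ctsb. Other genes named were chosen after their values were seen: Ctsf, Igf2r, Tfeb, Dcn and Pdgfra, those below the noise level, and those that passed the filter only through the mdx arrays. The replicate numbers are not said to pair animals, and same-numbered arrays did not deviate together.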

Additional observations from a re-analysis of the deposited data

Results flagged for a closer look

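The values of each of the 17 probe sets were checked in both groups for an array far from the other 4 (Dixon's test, 34 checks), and 2 stood out, where chance gives about 1 in 20. Lgmn (93261_at) read 4158 on mdx replicate 2 and 3374 to 3476 on the other mdx arrays. Ctse (104696_at) read -73.2 on mdx replicate 4 and 26.9 to 52.1 on the other mdx arrays, all of it below the noise level.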

How the results depend on the processing

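Under 21 alternatives the member probe sets called higher numbered 11 to 14 and those called lower 0; no alternative ended the call of any of the 12 probe sets, apart from the stricter filter, which left a dim Ctsc probe set untested. The settings that left out 2 mdx arrays or used the root mean square of the values below 0 as noise level were chosen after seeing the data. Scaling to the hybridization controls gave 3507 probe sets higher and 124 lower over all tested, against 1191 and 1329, and called Ctsd at 0.78 and Ctse 93861_f_at at 0.57. It turned Ctse 93860_i_at to 0.31, Cst3 99586_at to 0.38, Kng1 to 0.29, Mcpt1 to 0.45 and Mcpt8 to 0.038. Quantile normalization turned Cst3 99586_at to 0.20, and leaving out mdx replicates 1 and 5 together turned Ctse 93860_i_at to 0.16. Leaving out single arrays, Ctse 93861_f_at ran from -0.017 to 0.16 and Cst9 from -0.035 to 0.28; the cause was not tested. With the replicate number as a replicate block, 2212 probe sets were called over all tested, against 2520, with 12 member probe sets higher; the correlations of same-numbered arrays ran from -0.13 to 0.052. Probe sets below the noise level carry little information.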
